A study of Mus musculus with 9 samples.

Results

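Small nucleolar RNA (snoRNA) host lncRNAs were followed in mouse liver after an overdose of acetaminophen (APAP). They were taken from the deposited lncRNA table as every transcript whose gene name begins with Snhg or is Gas5, Epb41l4aos or Dancr, and the isoforms were also summed per gene. This gave 19 of the table's 24215 genes and 127 of its 54836 transcripts. All 127 isoforms had the same coordinates in GENCODE M21 (GRCm38).

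The mice were wild-type C57BL/6, aged 8 weeks and weighing 20 g on average, and 3 liver libraries per group were deposited. Whether each library is a separate animal is not stated per sample. The dmPGE2+APAP group was given 300 μg/kg of dmPGE2, a prostaglandin E2 analogue, and 1 h later 500 mg/kg of APAP into the peritoneum. The APAP group had the same APAP dose alone, and the control group had saline. Livers were collected 6 h after APAP, and the RNA is that of liver tissue with all its cell types. There was no group with dmPGE2 alone. The control columns were assigned by elimination, since the name they carry is not explained in the labels.

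A snoRNA host gene is transcribed by RNA polymerase II and spliced, and its snoRNAs are trimmed out of the excised introns. The snoRNAs then guide methylation (box C/D) or pseudouridylation (box H/ACA) of ribosomal and other RNAs. The spliced host RNA often carries no long reading frame and is commonly degraded by nonsense-mediated decay when it is translated. Many host genes begin with a run of pyrimidines (a 5′ terminal oligopyrimidine, or TOP, start), which places their translation under mTORC1 and LARP1, as for ribosomal protein genes. Host RNAs can therefore change in level through transcription or decay, and the level of the host does not give the level of its snoRNAs. The values below are of host RNAs, and mature snoRNAs were not measured.

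Of the 19 host genes 18 hold an annotated snoRNA or scaRNA on their own strand, and Snhg7os holds none. Counting overlapping entries once, they hold 249 in all, of which 208 lie in Snhg14, the long antisense partner of Ube3a. Here a host holds a snoRNA that lies within the span of its gene. Of the 251 entries before overlaps are merged, 123 lie in an intron of at least 1 listed isoform. Gas5 holds 9, Snhg1 holds 8 and Snhg12 holds 4. Snhg5, the host with the clearest change below (chromosome 9, from 88521050 to 88522929, minus strand), holds a pair of box C/D snoRNAs, Snord50a and Snord50b, which in human cells guide methylation of 28S ribosomal RNA. Both are 72 bases long and differ at 1 position, C50A, counted from the 5′ end with the Snord50a base first. They are shown because they are what this host carries. Capitals mark the core of box C and box D. The sequences are from GENCODE M21 at chr9:88521529-88521600 and chr9:88521797-88521868 on the minus strand of GRCm38.
Snord50a: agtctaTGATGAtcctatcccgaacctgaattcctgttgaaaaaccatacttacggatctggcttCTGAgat
Snord50b: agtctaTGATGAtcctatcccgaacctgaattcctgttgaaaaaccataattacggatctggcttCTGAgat

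RefSeq promoters (GRCm38.p6) were found for 16 hosts in 20 entries, and Epb41l4aos, Snhg4 and Snhg6 had no entry. The windows below hold 40 bases before the annotated start and 20 from it, and the first run of a C and at least 4 more pyrimidines beginning within 5 bases of the start is in capitals. They are shown to compare the starts of the hosts that the results turn on. Gas5 has 2 entries, and the one that holds such a run is shown. The windows are chr1:161035126-161035185 (plus strand), chr3:123508317-123508376 (minus), chr4:132308638-132308697 (plus), chr4:132353667-132353726 (minus), chr9:88522878-88522937 (minus) and chr19:8723447-8723506 (plus).
Gas5: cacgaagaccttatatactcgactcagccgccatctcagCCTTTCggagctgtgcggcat
Snhg8: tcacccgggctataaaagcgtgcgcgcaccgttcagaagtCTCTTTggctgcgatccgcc
Snhg12: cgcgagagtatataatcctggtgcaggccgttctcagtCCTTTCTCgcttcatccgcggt
Snhg3: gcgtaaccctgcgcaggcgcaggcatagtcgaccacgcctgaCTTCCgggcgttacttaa
Snhg5: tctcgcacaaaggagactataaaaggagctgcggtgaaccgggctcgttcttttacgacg
Snhg1: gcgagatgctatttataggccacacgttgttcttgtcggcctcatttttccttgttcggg

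A C and 4 pyrimidines stood exactly at the annotated start in 2 of the 20 entries, of Gas5 and Snhg8, and in 2.51% of all 32851 promoters. Within 5 bases of the start it was found in 7 of the 20 entries, each of another host, against 18.3% of all promoters. The other Gas5 entry, with an upstream start, has no such run and no cAMP response element. Snhg5 and Snhg1 have no such run in this window of starts. Of motifs searched on both strands of the 300-base promoters, the cAMP response element TGACGTCA was in 2 of the 20 entries, at position −46 from the start in Gas5 and −88 in Snhg15, and in 1.79% of all promoters. The E-box CACGTG was in Snhg15 and Snhg9 (7.15% of all). The antioxidant response element core TGACNNNGC was in 5 entries of 4 hosts, Snhg7os, Snhg17, Snhg8 and Snhg18 (12.4% of all). The AP-1 site TGANTCA (7.81% of all) and the C/EBP-ATF response element TGATGNAA (3.97% of all) were in 0 of the 20 entries. TGACGTCA and TGACNNNGC begin alike and can share letters, and a match is a match of letters only.

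Deposited values are FPKM, fragment counts divided by transcript length and library size, so levels of different genes are per length. The depth per library is not known, and the tables named as read counts hold no counts. Between 9979 and 10321 mRNAs per library reached 1 FPKM. Hepatocyte markers (Alb, Apoa1, Ttr, Serpina1a, Cps1, Cyp2e1 and Hnf4a) summed to 41775 to 46168 FPKM in dmPGE2+APAP, 40383 to 47305 in APAP and 35153 to 37918 in control livers, so the labelled tissue held its markers. In this sum every treated library lay above every control, and the most abundant genes weigh most in it. Of the 7 genes 0 passed in limma for either treated group against control. Their median log2 was −0.11 for APAP and 0.05 for dmPGE2+APAP against control, beside −0.18 and −0.09 for all mRNAs tested. Markers of other cells also moved with the groups in part. The 7 neutrophil markers summed to 5.10 to 11.2 FPKM in dmPGE2+APAP, 9.56 to 41.3 in APAP and 2.41 to 6.77 in control livers. Of the 4 tested, 3 passed in limma as higher in APAP livers against control (Retnlg, S100a8 and Csf3r), and 0 as lower. In dmPGE2+APAP livers 0 passed against control. The 7 erythroid and platelet markers summed to 251 to 268 FPKM in dmPGE2+APAP, 340 to 788 in APAP and 253 to 329 in control livers. Of these 7, 5 passed as higher in APAP livers against control (limma adjusted p under 0.05), and 0 as lower. In dmPGE2+APAP livers 3 passed as higher against control (Itga2b, Pf4 and Ppbp), and 0 as lower. Of all mRNAs tested, 7.67% and 6.46% passed as higher in these comparisons, and 18.6% and 10% as lower. The 8 lymphocyte markers summed to 0.776 to 1.32 FPKM in dmPGE2+APAP, 0.795 to 1.22 in APAP and 1.97 to 2.36 in control livers. Of these 8, 0 reached the minimum for testing (0.5 FPKM in at least 3 libraries), so this sum rests on values near the floor. Sinusoidal endothelium markers summed to 84.6 to 87.6 FPKM in dmPGE2+APAP, 68.9 to 88.0 in APAP and 72.5 to 77.6 in control livers, so in this sum the dmPGE2+APAP libraries lay above the controls. Its 6 members did not move alike: Lyve1 passed as higher and Kdr as lower in both treated groups against control. Kupffer cell and monocyte markers summed to 88.8 to 93.4 FPKM in dmPGE2+APAP, 51.0 to 87.1 in APAP and 83.9 to 94.9 in control livers. Stellate cell markers summed to 131 to 149 FPKM in dmPGE2+APAP, 129 to 145 in APAP and 89.1 to 132 in control livers, and cholangiocyte markers to 20.9 to 32.4 in dmPGE2+APAP, 24.2 to 44.6 in APAP and 13.7 to 30.2 in control livers. Of the 6 Kupffer cell and monocyte markers tested, Cd68 passed as higher and Cd5l as lower for APAP against control. Of the 7 stellate markers, Hgf passed as higher and Lrat as lower in that comparison. With scale factors from mRNAs alone Cd5l and Lrat did not pass, and Dcn passed as higher. For dmPGE2+APAP against control the stellate markers Dcn and Hgf passed as higher, and 0 as lower. Of the 4 cholangiocyte markers tested, Sox9 passed as higher in both treated groups against control, and 0 as lower. No marker of these 8 lists was at 0 in every library. The part of these shifts in the results below was not tested.

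The hosts spanned a wide range of levels. The mean over all 9 libraries was at least 1 FPKM for 10 of the 19 genes and for 12 of the 127 isoforms, and 15 isoforms were listed at 0 in every library. Epb41l4aos (chromosome 18, from 33794892 to 33795986), transcribed opposite to a neighbouring gene of the 4.1 protein family, was the most abundant at 13.8 FPKM on average. Snhg3 followed at 11.2, Snhg6 at 7.52, Snhg8 at 7.50, Gas5 at 6.94, Snhg1 at 3.97, Snhg5 at 2.85, Snhg12 at 2.52, Snhg20 at 1.22 and Snhg17 at 1.14 FPKM. Neighbours in this order overlap between libraries: Snhg6 ranged from 5.26 to 9.58 and Snhg8 from 5.47 to 9.20 FPKM. At the low end were Snhg14 (0.231), Dancr (0.205), Snhg10 (0.0844), Snhg9 (0.0671), Snhg11 (0.0515) and Snhg7os (0.0268 FPKM).

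Summed over the 19 hosts, the level was 66.7, 70.8 and 65.9 FPKM in dmPGE2+APAP livers, 61.7, 76.5 and 66.3 in APAP livers and 56.2, 43.3 and 42.3 in controls. All 6 treated libraries lay above all 3 controls, and the treated groups overlapped each other. Without Gas5 the sums were 59.4, 63.2 and 62.2 FPKM in dmPGE2+APAP, 50.8, 66.8 and 55.5 in APAP and 49.7, 40.8 and 39.0 in control livers. These sums are not rescaled. Without Gas5 the step from 49.7 FPKM in control replicate 1 to 50.8 in APAP replicate 1 is no larger than that between their scale factors (0.992 and 1.02). The sums without Gas5 therefore do not separate APAP from control livers. All these sums are a description, since the most abundant hosts weigh most in them. In bulk liver RNA, a change in the number of cells of a type and a change in RNA per cell cannot be told apart.

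**Figure D1:**
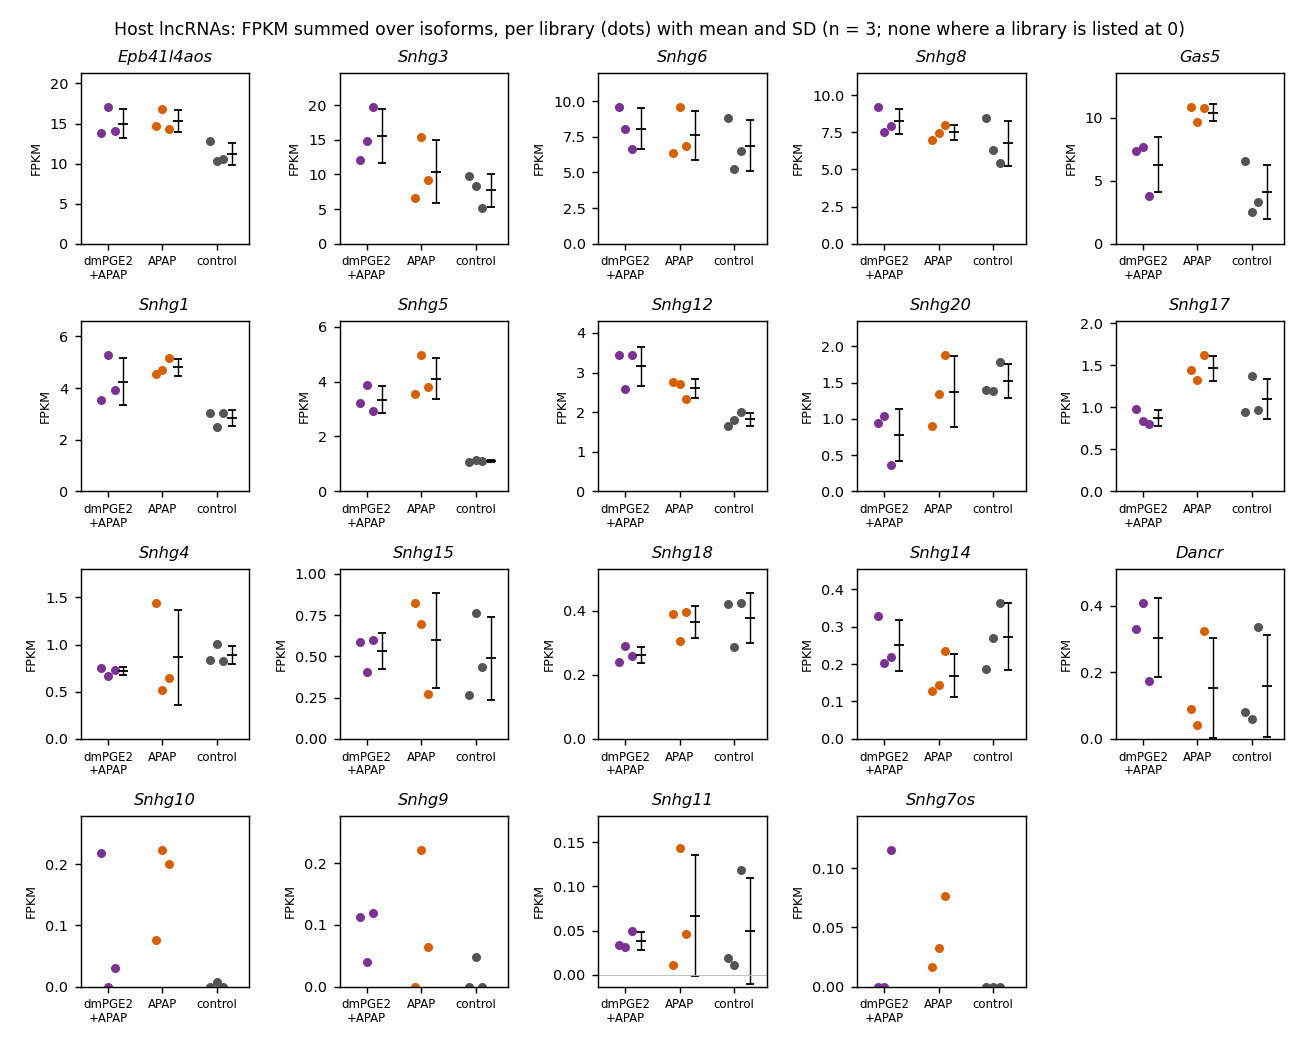
Deposited FPKM of each host lncRNA, summed over its isoforms, with 1 dot per library and the mean and SD of 3 libraries beside them, on linear axes that differ between panels. No mean is drawn for Snhg10, Snhg9 and Snhg7os, which are listed at 0 in some libraries. The Snhg5 controls lie between 1.06 and 1.14 FPKM, below all 6 treated libraries (2.93 to 4.97 FPKM).

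APAP livers were first set against controls, to ask which hosts differ after the overdose alone. Snhg5 and Gas5 were higher in APAP livers and no host was called lower. A host was tested when 3 or more libraries held it at 0.1 FPKM or above. Of the 17 such hosts 2 passed (limma, Benjamini-Hochberg adjusted p under 0.05 over 10529 genes), where 7.26% of all genes in the table did (5.27% higher and 1.98% lower). At an unadjusted p under 0.05 there were 4 hosts, all higher, where 23.1% of all genes had such a p. Fitted changes were above 0 for 12 hosts and below 0 for 5, and the median of the 17 log2 values was 0.34, that of all genes 0.07. Of all genes tested 54.8% were fitted above 0. With scale factors from lncRNAs alone the split was 10 to 7 and the median 0.19, and Snhg6 and Snhg8 fell on the other side of 0. Snhg10 and Snhg9 entered the test through treated libraries only. Among the 15 hosts with a control library at the minimum, 3 had an unadjusted p under 0.05, 10 were fitted above 0 and 5 below, and the median was 0.21.

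Snhg5 was at 3.2, 3.88 and 2.93 FPKM in dmPGE2+APAP livers, 3.55, 4.97 and 3.81 in APAP livers and 1.06, 1.14 and 1.11 in controls. Every treated library was at least 2.93 and no control was above 1.14 FPKM, so neither treated group overlapped the controls. APAP livers averaged 4.11 ± 0.759 FPKM against 1.10 ± 0.0404 in controls (SD, n = 3 per group), a 3.38-fold difference on the log2(FPKM + 0.1) scale (log2 1.76, SE 0.23, limma adjusted p = 0.00325). The gene passed in all 17 alternative settings, with log2 values from 1.24 to 1.87.

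Gas5 (growth arrest-specific 5, chromosome 1, from 161034422 to 161038539, plus strand) was first described as an RNA that accumulates in growth-arrested cells. It was at 7.39, 7.66 and 3.77 FPKM in dmPGE2+APAP livers, 10.8, 9.68 and 10.8 in APAP livers and 6.57, 2.50 and 3.31 in controls. All 3 APAP libraries lay above all others, and the dmPGE2+APAP libraries overlapped the controls. APAP livers averaged 10.4 ± 0.645 FPKM against 4.12 ± 2.15 in controls (SD, n = 3 per group), a 2.62-fold difference (log2 1.39, SE 0.37, limma adjusted p = 0.0491). This call lay at the threshold. It was kept in 4 of 17 alternatives, where the adjusted p ranged from 0.0231 to 0.143. Leaving out dmPGE2+APAP replicate 1 (adjusted p = 0.0591) or 2 (0.0664), APAP replicate 1 (0.124), 2 (0.1) or 3 (0.117), or control replicate 2 (0.143) or 3 (0.126) ended it in limma, each with a log2 value between 1.10 and 1.43. Zbtb37, a zinc finger gene that overlaps Gas5 on the opposite strand, was at 1.32 ± 0.478 FPKM in APAP and 1.49 ± 0.200 in control livers (adjusted p = 0.361).

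The other hosts of at least 1 FPKM did not pass in this comparison. Snhg1 (chromosome 19, from 8723475 to 8726443) was at 4.55, 4.70 and 5.18 FPKM in APAP livers against 3.04, 2.49 and 3.02 in controls. Its groups did not overlap, with a log2 fold change of 0.70 (SE 0.21, limma adjusted p = 0.0773, unadjusted 0.00784). Snhg12 (chromosome 4, from 132308623 to 132311024) was at 2.76, 2.72 and 2.32 FPKM in APAP against 1.65, 1.81 and 1.99 in control livers, again without overlap (log2 0.46, adjusted p = 0.258). After rescaling, 5 of the 15 hosts with a control library at the minimum had APAP libraries all above the controls (Gas5, Snhg1, Snhg5, Snhg12 and Snhg17), as had 17.6% of all genes, and 0 had them all below, against 11% of all genes. Both shares are over all 10529 genes tested, where genes that entered through treated libraries only were not set aside. Of all 17 hosts tested, 6 had them all above and 0 all below. Snhg17 was at 1.44, 1.33 and 1.62 FPKM in APAP against 0.946, 1.37 and 0.973 in control livers, which overlap before rescaling (log2 0.36, adjusted p = 0.378). After rescaling Snhg3, Snhg6, Snhg8, Snhg20 and Epb41l4aos overlapped between APAP and control livers, with adjusted p from 0.272 to 0.858.

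Snhg10, host of the scaRNA Scarna13, was listed at 0.0769, 0.223 and 0.201 FPKM in APAP livers against 0, 0.00807 and 0 in controls. These levels lie near the added 0.1, the log2 fold change of 1.31 depends on it (0.21 to 3.70 over 16 alternatives), and the adjusted p was 0.114. Snhg7os was listed at 0.0169, 0.0323 and 0.0768 FPKM in APAP livers and at 0 in all 3 controls, under the minimum for testing.

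The comparison of dmPGE2+APAP with control asks which hosts differ after the overdose that followed dmPGE2. Snhg5 was again higher and was the 1 host of 17 that passed, where 3.79% of the table's genes did (2.5% higher and 1.29% lower). At an unadjusted p under 0.05 there were 5 hosts, 4 of them higher, where 19.8% of all genes had such a p. Fitted changes were above 0 for 12 and below 0 for 5 of the 17, with a median log2 of 0.46 against 0.06 for all genes. Of all genes tested 54% were fitted above 0. Without Snhg10 and Snhg9 the split was 10 to 5 and the median 0.35. This comparison and the one of APAP with control use the same 3 control libraries, so their values stand side by side and are not separate evidence.

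Snhg5 averaged 3.34 ± 0.487 FPKM in dmPGE2+APAP livers against 1.10 ± 0.0404 in controls (SD, n = 3 per group), a 2.94-fold difference (log2 1.55, SE 0.23, limma adjusted p = 0.00864), and it passed in all 17 alternatives (log2 1.07 to 1.63). Snhg12 was at 3.44, 2.59 and 3.44 FPKM in dmPGE2+APAP livers against 1.65, 1.81 and 1.99 in controls. The groups did not overlap, with a log2 fold change of 0.80 (SE 0.23, adjusted p = 0.0836). Snhg3, host of the H/ACA snoRNAs Snora73a and Snora73b, which act in the maturation of 18S ribosomal RNA, was at 12.1, 14.9 and 19.7 FPKM in dmPGE2+APAP livers, 6.54, 15.5 and 9.19 in APAP livers and 9.76, 8.33 and 5.12 in controls. Every dmPGE2+APAP library lay above every control, while APAP replicate 2 alone among the APAP libraries did so (dmPGE2+APAP against control: log2 1.06, SE 0.38, adjusted p = 0.148). Snhg1 was at 3.53, 5.28 and 3.93 FPKM in dmPGE2+APAP livers, also above all controls (log2 0.59, adjusted p = 0.153).

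Epb41l4aos was at 13.8, 17 and 14.1 FPKM in dmPGE2+APAP livers, 14.7, 16.9 and 14.4 in APAP livers and 12.8, 10.3 and 10.5 in controls. The treated groups were close to each other and above the controls before rescaling, with log2 values of 0.46 for dmPGE2+APAP (adjusted p = 0.258) and 0.41 for APAP (adjusted p = 0.272) against control. Snhg20 (chromosome 11, from 117076008 to 117078955) differed in the other direction: it was at 0.935, 1.03 and 0.366 FPKM in dmPGE2+APAP against 1.39, 1.38 and 1.79 in control livers (log2 −0.94, SE 0.36, adjusted p = 0.181). Hosts whose dmPGE2+APAP libraries lay all above the controls numbered 5 of 17 (Epb41l4aos, Snhg3, Snhg1, Snhg5 and Snhg12), beside 15.9% of all genes, and all below 2 of 17 (Snhg20 and Snhg4), beside 10.7%.

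The comparison of dmPGE2+APAP with APAP alone asks whether the pretreatment changed host levels after the overdose. No difference was called: 0 of 17 hosts passed in limma, where 0.0095% of the table's genes did (1 of 10529). At an unadjusted p under 0.05 there was 1, Snhg17, where 7.08% of all genes had such a p. Fitted changes were above 0 for 9 hosts and below 0 for 8, with a median log2 of 0.01 against −0.03 for all genes, and without rescaling the split was 7 to 10. Of all genes tested 47.5% were fitted above 0 with rescaling.

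Snhg17 (chromosome 2, from 158353700 to 158361580) was at 0.978, 0.842 and 0.798 FPKM in dmPGE2+APAP livers against 1.44, 1.33 and 1.62 in APAP livers. The groups did not overlap (log2 −0.61, SE 0.23, unadjusted p = 0.0231, limma adjusted p = 0.638). Gas5 averaged 6.27 ± 2.17 FPKM in dmPGE2+APAP against 10.4 ± 0.645 in APAP livers (SD, n = 3 per group), also without overlap (log2 −0.70, SE 0.37, adjusted p = 0.742). With Snhg18 these were the 3 hosts lower in every dmPGE2+APAP library, beside 6.82% of all genes, and 0 were higher in every one, beside 5.72%. Snhg5 differed by a log2 value of −0.20 (SE 0.23, adjusted p = 0.897), and its per-library values overlapped between these groups. An exact permutation test of 3 libraries against 3 has a smallest two-sided p of 0.1, so calls rest on limma's pooled estimate of the spread, and a miss does not show that the groups are alike.

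**Figure D2:**
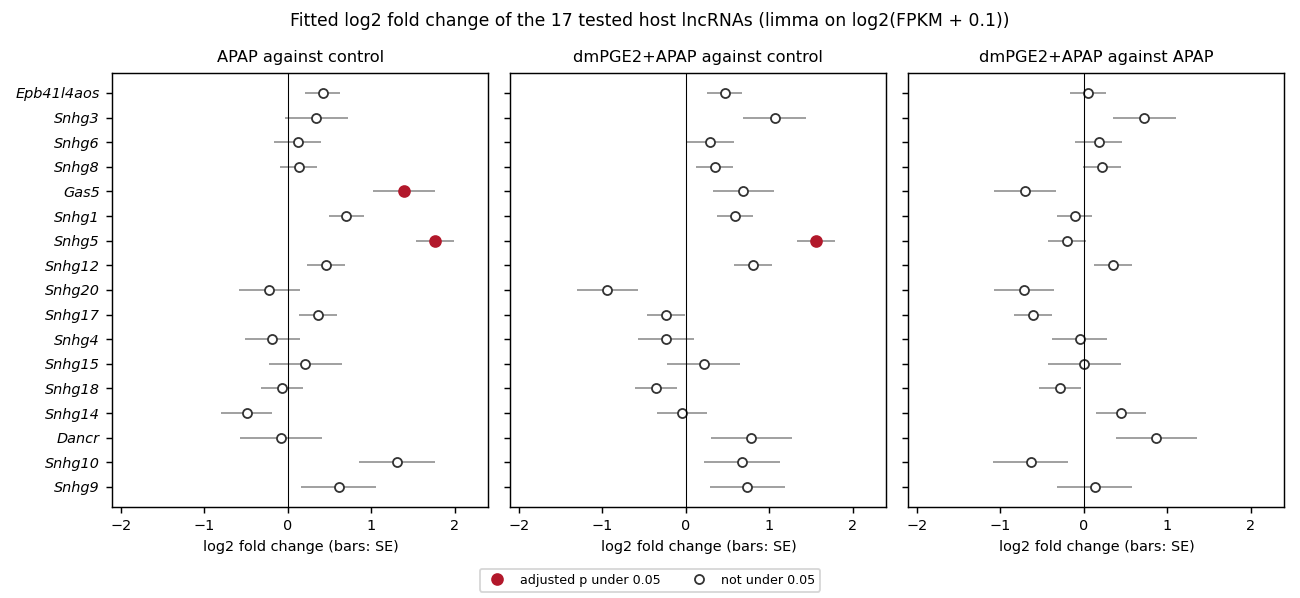
Fitted log2 fold change of the 17 tested hosts in the 3 comparisons, with bars of 1 SE, ordered from the most to the least abundant host, and filled points where the limma adjusted p is under 0.05. Snhg5 stands at 1.76 for APAP and 1.55 for dmPGE2+APAP against control, and no point is filled for dmPGE2+APAP against APAP.

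The remaining hosts were low or did not separate the groups. Snhg6 ranged from 6.65 to 9.57 FPKM in dmPGE2+APAP, 6.39 to 9.58 in APAP and 5.26 to 8.80 in control livers. Snhg8 ranged from 7.56 to 9.20 FPKM in dmPGE2+APAP, 6.99 to 8.02 in APAP and 5.47 to 8.46 in control livers. Both hosts overlapped in all 3 comparisons. Snhg4 spanned 0.668 to 0.753 FPKM in dmPGE2+APAP, 0.517 to 1.45 in APAP and 0.831 to 1.01 in control livers, and Snhg15 0.406 to 0.597 in dmPGE2+APAP, 0.273 to 0.826 in APAP and 0.266 to 0.763 in control livers. Snhg18 was at 0.240 to 0.289 FPKM in dmPGE2+APAP, 0.307 to 0.396 in APAP and 0.288 to 0.426 in control livers. Dancr, which in human cells is known as a lncRNA that holds back differentiation, was at 0.174 to 0.409 FPKM in dmPGE2+APAP, 0.0427 to 0.323 in APAP and 0.0612 to 0.335 in control livers. Snhg14, a transcript best known from neurons, was at 0.202 to 0.328 FPKM in dmPGE2+APAP, 0.129 to 0.234 in APAP and 0.186 to 0.364 in control livers. Only the isoform Snhg14-209 of its 14 passed the filter, and 7 were listed at 0 in every library. Snhg9 was listed at 0 in 3 of 9 libraries and reached at most 0.221 FPKM. Snhg11 reached at most 0.144 FPKM in the lncRNA table, and its entry in the mRNA table ranged from 0.169 to 0.542 FPKM.

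At the level of isoforms, a single Snhg5 transcript and a single Snhg3 transcript were called. Of the 77 isoforms tested 2 passed for APAP against control (3.61% of 22984 in the table, 2.67% higher and 0.944% lower) and the same 2 for dmPGE2+APAP against control (1.81% in the table, 1.27% higher and 0.535% lower), all higher. Between dmPGE2+APAP and APAP livers 0 passed in limma, as in the whole table (0%), with 6 of the 77 host isoforms, and 6.48% of all isoforms, at an unadjusted p under 0.05. For APAP against control 59 isoforms were fitted above 0 and 18 below, with a median log2 of 0.40 against 0.10 for all isoforms tested. Of the 77, 20 are of Gas5, so this split counts 1 gene many times. In control replicates 2 and 3, 10 and 13 of the 25 Gas5 isoforms were listed at 0. Isoforms that entered through treated libraries only were not set aside, and the share of all isoforms fitted above 0 is not given here.

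Snhg5-206, an isoform of 4 exons and 1221 bases annotated as a retained intron, carried most of the Snhg5 signal in every treated library. It was at 2.19, 2.57 and 2.06 FPKM in dmPGE2+APAP livers, 2.39, 2.80 and 2.62 in APAP livers and 0.682, 0.395 and 0.659 in controls, with no overlap of the treated libraries with the controls. Its log2 fold change was 1.98 for APAP (SE 0.27, limma adjusted p = 0.00751) and 1.87 for dmPGE2+APAP against control (adjusted p = 0.0122). Without dmPGE2+APAP replicate 2 the call for dmPGE2+APAP was lost (adjusted p = 0.0597). The isoform made up 66.2% to 70.1% of the Snhg5 FPKM in dmPGE2+APAP, 56.3% to 68.6% in APAP and 34.8% to 64.5% in control livers. The intron that it keeps lies upstream of the snoRNAs. Snord50a and Snord50b, whose sequences are given above, each lie in an intron of 5 of the 6 Snhg5 isoforms and touch an exon only in Snhg5-204 and Snhg5-205, 1 snoRNA in each.

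Snhg3-205 has 4 exons and 332 bases. It was listed at 1.12, 0.630 and 1.32 FPKM in dmPGE2+APAP livers, 0.715, 1.35 and 2.19 in APAP livers and 0.282, 0 and 0 in controls. The treated libraries all lay above the controls, of which 2 were at 0, so the log2 values of 3.12 for APAP (SE 0.57, limma adjusted p = 0.0220) and 2.83 for dmPGE2+APAP (adjusted p = 0.0421) against control depend on the added 0.1. With a pseudocount of 1 they were 1.08 and 0.90, and with 0.01 they were 5.35 and 5.04. The APAP call was lost without APAP replicate 2 (0.0592) or 3 (0.0835) or control replicate 2 (0.0735) or 3 (0.0708). The dmPGE2+APAP call was kept without control replicate 1 only (0.0209) and was lost without any other library (adjusted p from 0.0525 to 0.129).

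The last exon of Snhg3-205 lies inside Rcc1, the gene for a chromatin-bound exchange factor of the GTPase Ran, which starts 81 bases from Snhg3 on the same strand. All 107 bases of that exon are also exon of Rcc1, so its reads cannot be assigned to 1 of the genes and the isoform is uncertain. Rcc1 in the mRNA table was at 3.94, 4.64 and 4.24 FPKM in dmPGE2+APAP livers, 3.85, 4.64 and 6.09 in APAP livers and 3.02, 2.66 and 2.44 in controls. No treated library overlapped the controls, with log2 fold changes of 0.76 for APAP (adjusted p = 0.00696) and 0.68 for dmPGE2+APAP against control (adjusted p = 0.0147, and 0.0579 without dmPGE2+APAP replicate 2). The most abundant Snhg3 isoform, Snhg3-204, was at 3.04, 7.54 and 6.09 FPKM in dmPGE2+APAP livers, 2.26, 2.92 and 2.33 in APAP livers and 3.26, 4.54 and 3.25 in controls. It lacks that exon but shares 347 of its 437 bases with Gm17300 on the opposite strand, and its APAP libraries lay below the controls (log2 −0.57, adjusted p = 0.436).

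**Figure D3:**
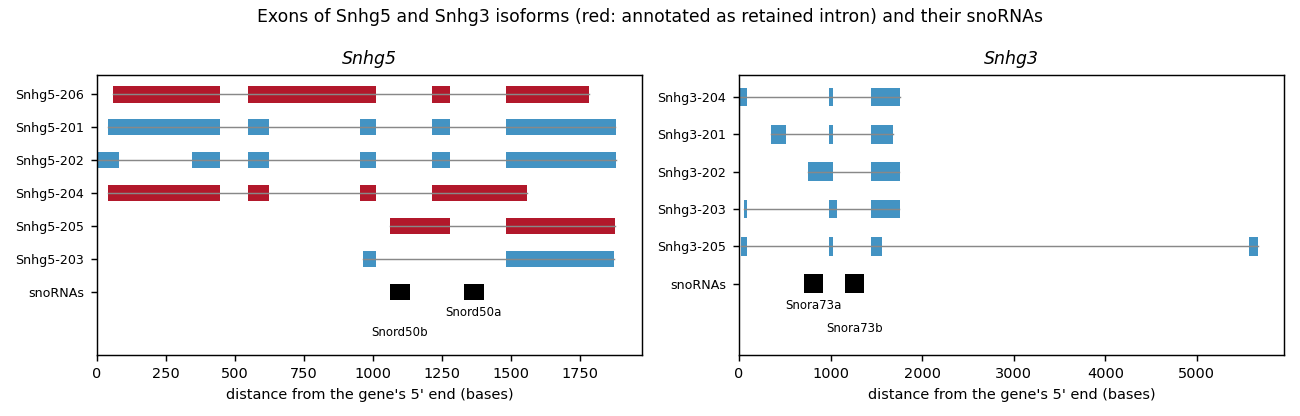
Exons (boxes) of the annotated Snhg5 and Snhg3 isoforms and the snoRNAs inside them (black), against distance in bases from the 5′ end of each gene; red marks isoforms annotated as retained introns. Snhg5-206 keeps an intron upstream of both snoRNAs, and the last exon of Snhg3-205 lies far downstream of the others.

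A test of isoform balance asked whether an isoform changed relative to the other isoforms of its host. Of the 72 host isoforms in it, 0 passed in any of the 3 comparisons in limma's diffSplice, where 0.634% of all isoforms in the test passed for APAP against control (0.295% higher and 0.339% lower). The background was 0.415% for dmPGE2+APAP against control (0.197% higher and 0.219% lower) and 0.0492% for dmPGE2+APAP against APAP (0.0328% higher and 0.0164% lower). An unadjusted p under 0.05 was found for 9 of the 72 for APAP against control (9.2% of all isoforms in the test), 6 for dmPGE2+APAP against control (9.19%) and 4 for dmPGE2+APAP against APAP (5.17%). Closest for APAP against control was Snhg3-205 (adjusted p = 0.0530). Snhg12-206 came closest for dmPGE2+APAP against control (adjusted p = 0.0584), at 1.08, 0.451 and 1.20 FPKM in dmPGE2+APAP livers against 0.249, 0.160 and 0.248 in controls. Snhg12-206 made up 17.4% to 34.9% of the Snhg12 FPKM in dmPGE2+APAP, 19.5% to 31.6% in APAP and 8.9% to 15.2% in control livers, so the shares of neither treated group overlapped those of the controls. Snhg8-203 went the other way in share, at 5.6% to 12.2% of Snhg8 in dmPGE2+APAP, 9.7% to 17.8% in APAP and 16.3% to 52.1% in control livers (adjusted p = 0.0622 for dmPGE2+APAP against control). Gas5-212 came closest for dmPGE2+APAP against APAP (adjusted p = 0.0639), listed at 0.800, 0.529 and 0.364 FPKM in dmPGE2+APAP livers, at 0 in all 3 APAP livers and in 2 of 3 controls.

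**Figure D4:**
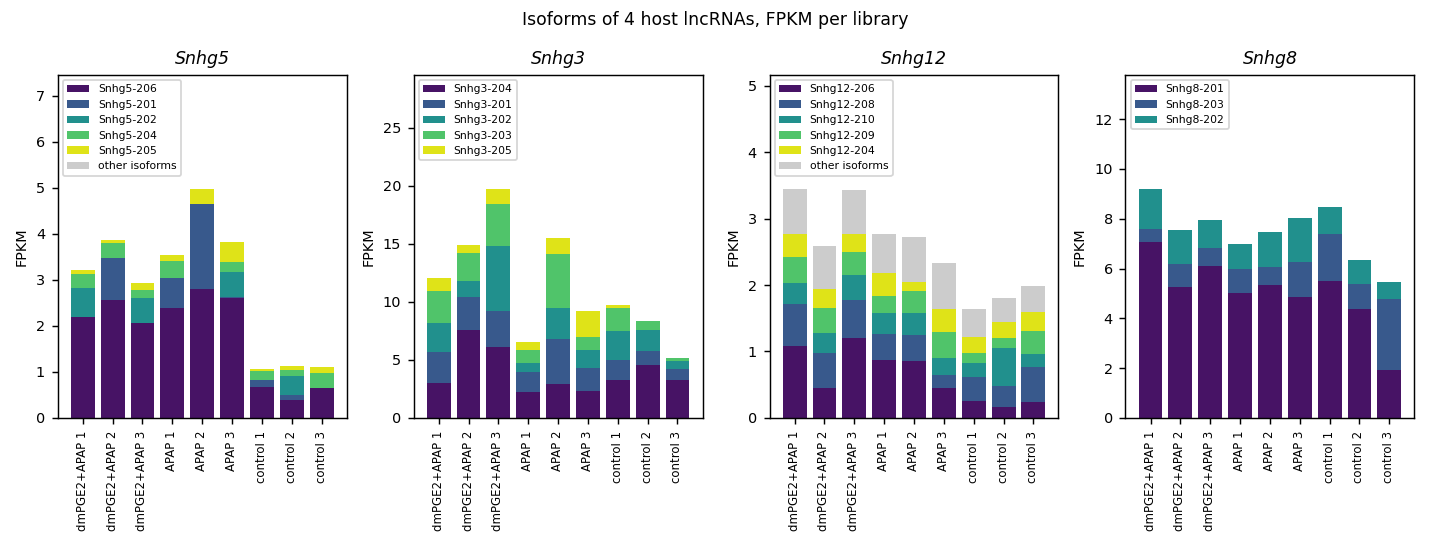
Deposited FPKM of the isoforms of Snhg5, Snhg3, Snhg12 and Snhg8 in each library, stacked on linear axes from 0, with isoforms after the fifth pooled in grey. Snhg5-206 fills most of the Snhg5 bars of treated livers (2.06 to 2.80 FPKM) and is lower in controls (0.395 to 0.682 FPKM).

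Gas5 is split over 25 isoforms, 20 of them annotated as retained introns, and none averaged 1 FPKM. Several libraries listed many of these isoforms at exactly 0. In dmPGE2+APAP livers 2, 1 and 14 of 25 were at 0, in APAP livers 2, 4 and 2, and in controls 2, 10 and 13. The 3 libraries with 10 or more zeros (dmPGE2+APAP replicate 3 and control replicates 2 and 3) were the 3 with the lowest Gas5 sums. For the other 102 host isoforms the zeros numbered 25 to 26 in dmPGE2+APAP, 23 to 30 in APAP and 29 to 30 in control livers. Each dmPGE2+APAP library had fewer of them than each control, and the APAP libraries overlapped both groups. Of all isoforms of the lncRNA table, 43.8% to 45.8% were at 0 in dmPGE2+APAP, 41.5% to 45.7% in APAP and 46.1% to 46.2% in control livers.

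Gas5-224, annotated as a lincRNA of 12 exons and the most abundant isoform on average, was listed at 0.987, 1.40 and 0 FPKM in dmPGE2+APAP livers, 1.25, 1.06 and 1.06 in APAP livers and 0.830, 0 and 0 in controls. It was at 0 in the same 3 libraries. The 7 Gas5 isoforms above 0 in every library summed to 2.21, 1.58 and 2.12 FPKM in dmPGE2+APAP livers, 3.88, 3.69 and 2.05 in APAP livers and 1.68, 1.24 and 2.34 in controls. On these 7 the APAP libraries overlapped the controls, but the 7 were picked by their zeros, which fall mostly in the libraries with low Gas5 sums, so these sums are a description only. Whether such a 0 is a low level or a failed estimate was not tested.

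**Figure D5:**
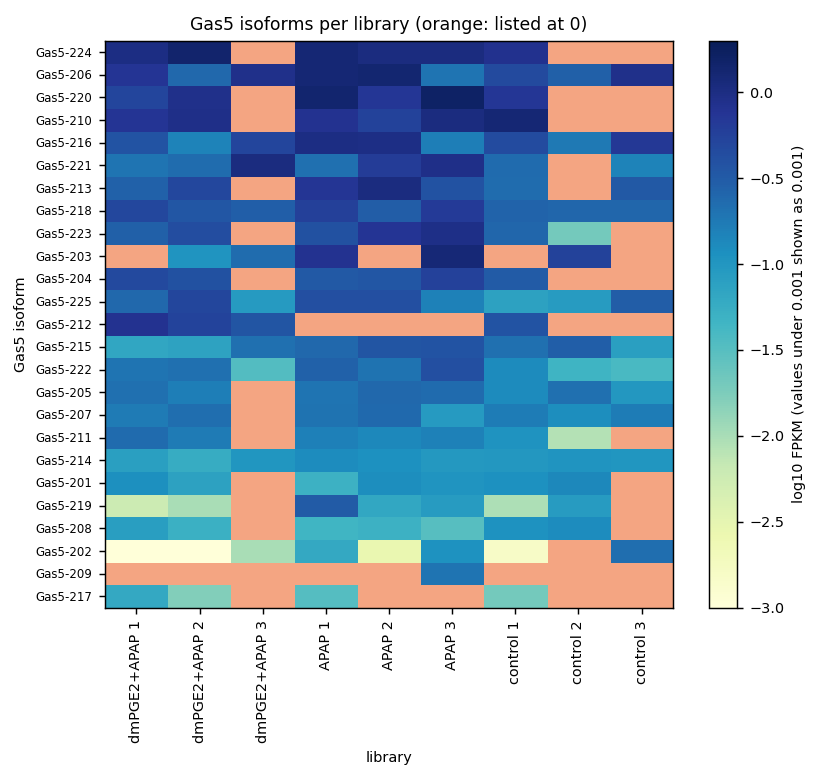
Level of each of the 25 Gas5 isoforms (rows, most abundant on average at the top) in each library (columns) as log10 FPKM, with isoforms listed at 0 in orange. The 3 libraries with 10 or more isoforms at 0 are dmPGE2+APAP replicate 3 (14) and control replicates 2 (10) and 3 (13).

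Of the 127 host isoforms 49 are annotated as retained introns. They made up 15.4% to 19.1% of the FPKM of all hosts in dmPGE2+APAP, 21.3% to 25.8% in APAP and 14.6% to 18.1% in control livers. The APAP libraries lay above all others in this share. Within Snhg1 the share was 46.6% to 56.4% in dmPGE2+APAP, 52.0% to 59.4% in APAP and 52.1% to 66.3% in control livers. Within Gas5 it was 68.1% to 94.0% in dmPGE2+APAP, 67.3% to 83.4% in APAP and 67.7% to 100% in control livers. Within Snhg5 it was 76.7% to 81.0% in dmPGE2+APAP, 63.0% to 85.6% in APAP and 55.5% to 99.9% in control livers. Within each of these hosts the groups overlapped, and the pooled share weighs each host by its level. Unspliced nuclear RNA and stable intron-retaining RNA cannot be told apart in these libraries.

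Several hosts start next to a protein-coding gene, and these genes were read from the mRNA table. Slc3a2, the heavy chain of the CD98 amino acid transporters, starts 106 bases from Snhg1 on the opposite strand. It was at 23.0, 23.9 and 25.2 FPKM in dmPGE2+APAP livers, 30.6, 25.8 and 27.8 in APAP livers and 18.5, 18.2 and 16.5 in controls. Both treated groups lay above the controls (APAP: log2 0.62, SE 0.11, limma adjusted p = 0.00433). For dmPGE2+APAP against control the log2 value was 0.48 (adjusted p = 0.0162, lost at 0.05002 without dmPGE2+APAP replicate 2 and at 0.0663 without replicate 3). Glrx5, the mitochondrial glutaredoxin gene 409 bases from Snhg10, was at 18.2 ± 0.902 FPKM in APAP and 15.8 ± 1.38 in control livers (adjusted p = 0.248). Whether the pairs share a control element was not tested. Exons shared with another gene make further values uncertain. On opposite strands, where the use of strand in counting decides, Snhg3 shares most with Gm17300: all 440 bases of Snhg3-201 and 347 of the 437 bases of Snhg3-204. Shorter stretches on opposite strands are shared by Snhg6 with Mcmdc2, Dancr with Gm43416 and Snhg9 with Rps2, and a long one by Snhg14-213 with Ube3a. On the same strand Snhg4 shares exon with Gm28285, and Snhg14-209 and Snhg14-211 with Gm38393. Snhg17-204 and Snhg17-207 share 132 bases with an entry named Gm23925, the name and length of a snoRNA that Snhg17 itself holds.

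Genes that act on snoRNAs or on host RNAs were read from the mRNA table in lists. Of its 11557 genes tested 26.3% passed for APAP against control (7.67% higher and 18.6% lower), 16.5% for dmPGE2+APAP against control (6.46% higher and 10% lower) and 0% for dmPGE2+APAP against APAP, where 1097 had an unadjusted p under 0.05. Scale factors from both tables made 29.2% of the passing genes higher for APAP against control and 39.2% for dmPGE2+APAP against control. Factors from mRNAs alone made it 50.6% and 52.1%, so counts are given with either scaling. With those factors 20.9% of genes passed for APAP against control (10.6% higher and 10.3% lower), 16.3% for dmPGE2+APAP against control (8.51% higher and 7.81% lower) and 0% for dmPGE2+APAP against APAP. None of the 4 box C/D proteins (Fbl, Nop56, Nop58 and Snu13) and none of the 4 box H/ACA proteins passed in limma in any comparison or with either scaling. Nop58 averaged 4.62 ± 1.04 FPKM in dmPGE2+APAP, 5.95 ± 1.42 in APAP and 4.18 ± 2.90 in control livers, and Dkc1, the pseudouridine synthase, 4.38 ± 0.996 in dmPGE2+APAP, 4.50 ± 1.12 in APAP and 6.27 ± 1.06 in control livers (SD, n = 3 per group).

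Of 10 snoRNP assembly factors 2 were lower in APAP livers than in controls with factors from both tables and 0 with the other scaling. Rpap3, a subunit of the R2TP chaperone complex, averaged 1.99 ± 0.336 FPKM in APAP and 3.31 ± 0.725 in control livers (log2 −0.74, limma adjusted p = 0.0155, and 0.0555 with the other scaling). Znhit6, a box C/D assembly factor, averaged 0.975 ± 0.182 FPKM in APAP and 1.40 ± 0.0747 in control livers (log2 −0.53, limma adjusted p = 0.0386, and 0.0968 with the other scaling). The Znhit6 call was kept only without dmPGE2+APAP replicate 1 or APAP replicate 1 and was lost without any other library (adjusted p from 0.0550 to 0.112). Rpap3 alone passed for dmPGE2+APAP against control (adjusted p = 0.0477, and 0.108 with the other scaling), a call kept only without control replicate 3 (otherwise 0.0572 to 0.139).

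Of 15 nonsense-mediated decay factors 1 was higher and 2 were lower in APAP livers with factors from both tables, and 1 was higher and 0 lower with the other scaling. Against control, dmPGE2+APAP livers had 1 higher and 1 lower, or 2 higher and 1 lower with the other scaling. Smg1, the kinase that phosphorylates UPF1, averaged 22.0 ± 2.68 FPKM in dmPGE2+APAP, 19.8 ± 3.33 in APAP and 9.10 ± 1.15 in control livers. It rose in both treated groups with either scaling (APAP: log2 1.07, limma adjusted p = 0.00104; dmPGE2+APAP: log2 1.31, adjusted p = 0.000486). The helicase gene Upf1 averaged 12.4 ± 0.643 FPKM in dmPGE2+APAP, 13.1 ± 0.719 in APAP and 17 ± 0.330 in control livers. Its APAP call depended on the scaling (log2 −0.42, adjusted p = 0.0268, and 0.0698 with the other scaling) and was lost without APAP replicate 1 (0.0607) or 3 (0.0620) or control replicate 1 (0.0662) or 2 (0.0755). Its dmPGE2+APAP call held with either scaling (adjusted p = 0.0386 and 0.0486), but it was kept only without APAP replicate 2 or 3 and lost without any other library (adjusted p from 0.0582 to 0.125). Upf3b was the other factor lower in APAP livers (2.09 ± 0.313 FPKM against 3.12 ± 0.615 in controls, adjusted p = 0.0318, and 0.0737 with the other scaling), and its call was lost without APAP replicate 1 (0.0994) or 3 (0.0703) or control replicate 1 (0.0796) or 3 (0.0832).

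Of 11 TOP regulators and mTORC1 components 1 was higher and 1 lower in APAP livers, against 2 higher and 0 lower with the other scaling. Against control, dmPGE2+APAP livers had 1 higher and 2 lower, and 1 of each with the other scaling. Eif4ebp1, a repressor of cap-dependent translation that mTORC1 inactivates, averaged 11 ± 0.530 FPKM in dmPGE2+APAP, 12.5 ± 1.31 in APAP and 7.53 ± 0.389 in control livers and rose in both treated groups (APAP: log2 0.68, limma adjusted p = 0.00592; dmPGE2+APAP: log2 0.58, adjusted p = 0.0150, and 0.0573 without dmPGE2+APAP replicate 2). Its relative Eif4ebp2 averaged 37.7 ± 1.85 FPKM in dmPGE2+APAP, 42.9 ± 2.96 in APAP and 54.3 ± 4.73 in control livers (dmPGE2+APAP against control: log2 −0.48, adjusted p = 0.0187, and 0.0745 without dmPGE2+APAP replicate 2 and 0.0686 without replicate 3). For APAP against control the Eif4ebp2 log2 value was −0.38 (adjusted p = 0.0339, and 0.0965 with the other scaling), a call kept only without dmPGE2+APAP replicate 1 or APAP replicate 2 (otherwise 0.0548 to 0.107). The kinase gene Mtor was lower in dmPGE2+APAP livers (8.86 ± 0.608 FPKM against 12.1 ± 1.19 in controls, adjusted p = 0.0425, and 0.0783 with the other scaling), a call kept only without APAP replicate 2 or 3 or control replicate 3 (otherwise 0.0637 to 0.138).

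Protein-coding genes that host snoRNAs give a comparison with other hosts. Of 22 ribosomal protein and translation factor hosts 1 was higher and 0 lower in APAP livers, with a median log2 of −0.01 against −0.18 for all genes of the mRNA table, and 2 were higher with the other scaling. Between dmPGE2+APAP and control livers 0 passed in limma, and 1 with the other scaling. The host higher in APAP livers was Eif4a2 (59.9 ± 4.92 FPKM in APAP against 43.0 ± 3.13 in control livers, limma adjusted p = 0.0459), whose call was kept only without APAP replicate 3 and lost without any other library (adjusted p from 0.0526 to 0.129). Of 11 other coding hosts 3 were higher and 0 lower in both treated groups: Ncl, Rcc1 and Hspa8. Rcc1 overlaps the Snhg3 gene by 5592 bases on the same strand and spans Snora73a and Snora73b, so it is not a host separate from Snhg3. The other scaling added Ddx39b in dmPGE2+APAP livers. Hspa8, the constitutive Hsp70 chaperone gene, averaged 440 ± 47.6 FPKM in dmPGE2+APAP, 678 ± 106 in APAP and 251 ± 18.1 in control livers (APAP: log2 1.38, adjusted p = 0.000652; dmPGE2+APAP: log2 0.85, adjusted p = 0.00807). Ncl, which encodes nucleolin, averaged 18.6 ± 0.581 FPKM in dmPGE2+APAP, 19.0 ± 3.21 in APAP and 14.3 ± 0.838 in control livers. Its APAP call (log2 0.36, adjusted p = 0.0312) was kept only without dmPGE2+APAP replicate 1 or APAP replicate 2 (otherwise 0.0506 to 0.101). Its dmPGE2+APAP call (log2 0.43, adjusted p = 0.0208) was lost without any of the dmPGE2+APAP libraries or control replicate 2 (0.0596 to 0.0754).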

How the data were processed

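Liver RNA of mice in 3 groups of 3 libraries was analysed. Per the labels' protocols, ribosomal RNA was removed from total RNA and the second strand was marked with dUTP. Per the submitters' processing notes the aligner was HISAT2 and the build GRCm38 (mm10). The quantifier, its use of strand and its annotation are not given in the sources used here. FPKM per transcript (lncRNA) and per gene (mRNA) were deposited by the authors. What the authors labelled read counts is a score that equals FPKM times genomic span times a constant per library, and it was not used for tests.

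FPKM was divided by an unweighted trimmed mean scale factor from both tables (30% trimmed by ratio, 5% by abundance), 0.1 was added and log2 taken. Features with at least 0.1 FPKM (mRNA 0.5) in at least 3 libraries were fitted with limma 3.58.1 in R 4.3.3 (all 9 libraries, 3 group means, abundance trend, 6 residual degrees of freedom, two-sided, Benjamini-Hochberg at 0.05 over the table), and isoform balance with diffSplice. The rescaling shifted log2 differences by −0.0407 for APAP against control, 0.0861 for dmPGE2+APAP against APAP and 0.0455 for dmPGE2+APAP against control. Factors from the lncRNA table alone shift them by −0.195, 0.143 and −0.0517. The fit of summed lncRNA genes was tried on simulated log2 values with normal noise and changes in the APAP group only. That simulation did not model listed zeros and did not cover isoforms, isoform balance or mRNAs. Means and SDs are of deposited FPKM.

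Members, lists and tests were chosen with earlier results of these data known. Named were all member genes, called isoforms and the most abundant isoforms, and up to 3 called genes per list. Other isoforms and neighbouring genes were named after their values were seen. Replicate numbers did not pair the samples. That libraries of a group are separate animals is not stated per sample, so p-values measure the spread between these libraries.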

Additional observations from a re-analysis of the deposited data

How the results depend on the processing

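Each count of calls was repeated with a pseudocount of 0.01 or 1, no filter or 0.5 FPKM, no rescaling, factors from each table alone, only the 2 groups compared, the replicate block, and without each library. Host genes called for APAP against control were 2 and became 1 (Snhg5) with either pseudocount, no filter, factors from the lncRNA table alone, only the 2 groups, or the replicate block, and 1 to 2 without a library. The count was 1 for dmPGE2+APAP against control and 0 against APAP in every setting run. Host isoforms called for APAP against control were 2, became 1 with only the 2 groups, and were 1 to 3 without a library. Between dmPGE2+APAP and control livers 2 were called, which became 1 with either pseudocount, no filter, no rescaling or only the 2 groups, 0 with the replicate block, and 0 to 3 without a library. Isoform balance for APAP against control, 0, became 1 with a pseudocount of 0.01, the 0.5 filter, no rescaling or factors from the lncRNA table alone, 2 with a pseudocount of 1 or no filter, and 0 to 1 without a library. Against APAP, dmPGE2+APAP gave 1 with a pseudocount of 0.01 or no filter and 0 to 1 without a library, and against control 2 with a pseudocount of 1 or no filter, 1 with the 0.5 filter and 0 to 1 without a library. Genes of the pathway lists called for APAP against control were 11, became 5 with only the 2 groups and were 5 to 10 without a library. Fewest were called without control replicate 1 (5), APAP replicate 3 (6), and dmPGE2+APAP replicate 2, APAP replicate 1 or control replicate 2 (7 each). In dmPGE2+APAP against control livers 9 were called, and 2 to 10 without a library, fewest without dmPGE2+APAP replicate 2 (2), 3 (4) or 1 (5) or control replicate 2 (5). The cause of these changes was not tested.

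The replicate numbers share no more than a number: the deviations of same-numbered libraries correlated between −0.0881 and 0.041. With the replicate block Gas5 stood at an adjusted p of 0.0516 in limma and Snhg5-206 at 0.0514 for dmPGE2+APAP against control. No called value changed sign in any setting. Of the fitted changes that passed no test, 41 values in 20 gene comparisons changed sign in some setting, the largest at a size of 0.44. Depth is unknown, so no counting error can be given, and hosts below about 0.1 FPKM cannot be compared.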
